A study of Mus musculus with 46 samples.

Results

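The CDR3 loops described here carry a cysteine of their own, apart from the conserved one that opens every loop. They were chosen by sequence alone. The CDR3 had to start with cysteine, end with phenylalanine or tryptophan, and hold a further cysteine anywhere from letter 5 to the 5th letter before the last, counting the first cysteine as letter 1. Of 153913 T cell receptor beta (TCRβ) rearrangements listed in 17 libraries, 233 met the rule (0.151%), with 3 to 45 in a library. No loop held a pair of such cysteines. The 233 rows were 222 distinct nucleotide sequences and 219 clonotypes, where rows of the same V segment and the same CDR3 amino acids count as 1 clonotype.

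The TCRβ chain is assembled in the thymus from V, D and J segments, which are trimmed and joined with inserted bases, and the CDR3 that spans the join touches the bound peptide. Unlike most residues, a cysteine at the tip of the loop has a free thiol. In mice such cysteines are known from T cells with strong self-reactivity, which are largely lost by deletion in the thymus or enter the CD8αα intraepithelial lineage, and they are scarce in conventional CD4+ and CD8+ T cells. Cysteine has the codons TGT and TGC, and tryptophan, its neighbour in the genetic code, has TGG.

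T cells were taken from naive mice and from mice with experimental autoimmune encephalomyelitis (EAE), which models multiple sclerosis. Cells labelled as CD8-T cells, read here as CD8-negative, came from the central nervous system (CNS, 3 libraries) and from spleen and lymph nodes (periphery, 3 libraries) of non-pregnant C57BL/6 WT mice with EAE. CD4+Foxp3+ regulatory T cells (Treg) and CD4+Foxp3- conventional T cells (Tcon) were taken from the spleen and lymph nodes of DEREG animals, in which Foxp3 control elements drive a transgenic reporter and toxin receptor. Treg of pregnant EAE mice at embryonic day 18 (E18) gave 5 libraries, and Treg gave 1 library each for EAE and for naive mice that were not pregnant. Tcon gave 1 library for each of the 4 combinations of EAE or naive with E18 or non-pregnant. For Treg the naive E18 condition was not analysed here. The mice's ages are not given in the sources used here. Strain, cell selection and the run code of the tables all differed between the CNS and periphery libraries and the DEREG libraries, and the run code also differed between Treg and Tcon, so these cannot be told apart from tissue or cell type. The amplified material was genomic DNA, so read shares follow cells and their PCR yield, not RNA levels, and no marker gene was measured against which the cell labels could be checked. Library totals ranged from 278420 to 571124 reads.

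The sequences show where a loop cysteine can arise. The first 5 lines give the coding ends of segments as most of the listed rearrangements carry them, all on chromosome 6 of mm10. TRBV24 lies at chr6:41218091-41218557 and TRBV4 at chr6:41059443-41059886, and capitals mark a T that can open a cysteine codon. In TRBV24 it begins a tyrosine codon. TRBJ2-3 (chr6:41543223-41543271) and TRBJ2-4 (chr6:41543362-41543410) have in capitals the last bases of a serine codon, which make TGT when a T precedes them. TRBJ2-1 (chr6:41542754-41542803) has a tyrosine codon in capitals, 1 base away from TGT. All are written 5′ to 3′ on the coding strand.
TRBV24 end: tgtgccagcagtctgTat
TRBV4 end: tgtgccagcagcTa
TRBJ2-3 start: actaGTgcagaaacgctgtatttt
TRBJ2-4 start: ctaGTcaaaacaccttgtacttt
TRBJ2-1 start: tataacTATgctgagcagttcttc
The next lines are the loop-cysteine rearrangements with most reads in 9 of the libraries, from the first to the last codon of the CDR3, with the cysteine codon in capitals.
CNS replicate 2, TRBV16 and TRBJ2-4: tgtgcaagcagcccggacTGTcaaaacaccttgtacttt
CNS replicate 3, TRBV19 and TRBJ1-2: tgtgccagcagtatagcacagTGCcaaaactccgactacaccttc
periphery replicate 1, TRBV24 and TRBJ2-5: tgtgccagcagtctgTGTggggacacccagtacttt
periphery replicate 3, TRBV4 and TRBJ1-2: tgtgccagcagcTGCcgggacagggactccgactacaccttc
Treg EAE E18 replicate 2, TRBV24 and TRBJ2-1: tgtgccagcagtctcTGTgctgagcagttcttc
Treg EAE E18 replicate 3, TRBV4 and TRBJ1-1: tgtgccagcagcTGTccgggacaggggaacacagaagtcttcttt
Treg EAE non-pregnant replicate 5, TRBV21 and TRBJ2-3: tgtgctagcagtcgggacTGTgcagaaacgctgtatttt
Tcon EAE E18 replicate 5, TRBV21 and TRBJ2-3: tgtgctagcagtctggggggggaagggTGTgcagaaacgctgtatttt
Tcon naive non-pregnant replicate 1, TRBV24 and TRBJ2-2: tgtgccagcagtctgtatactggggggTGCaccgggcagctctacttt
In periphery replicate 1 the cysteine codon starts at the last T of the TRBV24 end, and in Treg EAE E18 replicate 3 and periphery replicate 3 at the T of the TRBV4 end. In Treg EAE E18 replicate 2 the TGT stands where TRBJ2-1 usually has TAT. In both TRBV21 sequences the GT of the cysteine codon is the GT of TRBJ2-3.

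Cysteine was the rarest of the 20 amino acids in the loop window. It was 233 of the window's letters, against 2095 for methionine, the next rarest, and 192708 for glycine, the most frequent. Tryptophan, 1 base away in the genetic code, had 18627 letters. Just beyond the window, 51 CDR3 had a cysteine at letter 4 and 53 at the 4th letter before the last. Inside it, 21 had one at letter 5 and 41 at the 5th before the last. Letter 3 held a cysteine in 10177 CDR3, of which 10025 used TRBV1, whose own coding end carries it.

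The share of rearrangements with a loop cysteine was low in every library, from 0.0639% to 0.395%. It was 0.0975%, 0.371% and 0.353% in the CNS libraries, against 0.338%, 0.195% and 0.395% in the periphery libraries. CNS replicate 1, with 3 such rearrangements, was the lowest of the 6, and the groups overlapped. The mean was 0.274% ± 0.15 in CNS and 0.309% ± 0.10 in periphery (SD, n = 3 each). The difference of -0.0355 percentage points was within the spread between libraries (exact two-sided permutation p = 0.7, where the smallest possible p is 0.1). The Wilson 95% intervals of single CNS libraries reached from 0.0332% to 0.769%, so the counts of 3 to 9 rearrangements leave each share loosely fixed.

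In Treg of EAE E18 mice the share was 0.173%, 0.288%, 0.153%, 0.153% and 0.0808%, against 0.0789% in the Tcon library of the same condition. All 5 Treg values lay above that Tcon value, replicate 5 by a narrow margin. In EAE non-pregnant mice the share was 0.114% in Treg and 0.129% in Tcon, and in naive non-pregnant mice 0.09999% in Treg and 0.0854% in Tcon. Tcon of naive E18 mice had 0.0639%, the lowest of all libraries. Over all libraries the mean was 0.152% ± 0.069 for the 7 Treg libraries and 0.0893% ± 0.028 for the 4 Tcon libraries (SD). Within conditions the Treg minus Tcon difference averaged 0.0301 percentage points (exact permutation p = 0.333, two-sided, 7 against 3 libraries, where the smallest possible p is 0.0417). E18 minus non-pregnant averaged -0.00515 percentage points (exact permutation p = 0.958), and EAE minus naive 0.0241 percentage points (exact permutation p = 0.25, the smallest this design allows).

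All 3 periphery libraries had a higher share than any of the 4 Tcon libraries, 0.195% to 0.395% against 0.0639% to 0.129%. Strain, cell selection and run code differ between them, and no test was made. Among rearrangements with at least 5 reads the mean share was 0.214% ± 0.25 in CNS, 0.189% ± 0.070 in periphery, 0.0921% ± 0.057 in Treg and 0.0457% ± 0.0065 in Tcon (SD over libraries). V segments that natural killer T cells favour (TRBV13-2, TRBV29, TRBV1), used here to look for such cells, made up 35 of 233 loop-cysteine rearrangements (15.0%) and 22.9% of all others.

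**Figure D1:**
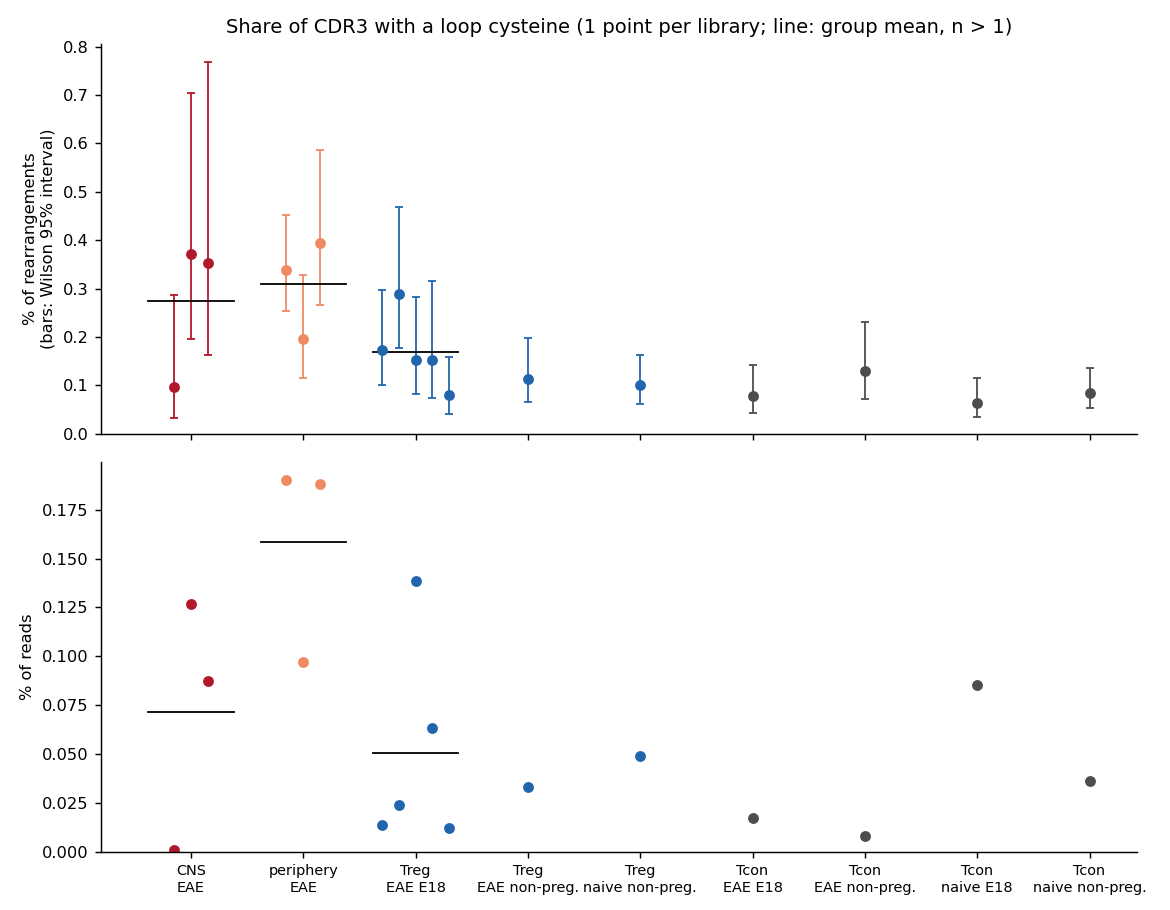
Share of loop-cysteine CDR3 among the rearrangements (upper panel, percent, with Wilson 95% intervals) and among the reads (lower panel, percent) of each of 17 libraries, with group means as lines where a group holds more than 1 library. Tcon libraries lie between 0.0639% and 0.129% of rearrangements and periphery libraries between 0.195% and 0.395%, while CNS replicate 1 is near 0 in reads.

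Among reads, loop-cysteine rearrangements made up 0.0671% in all, less than their 0.151% of rearrangements. They held 0.000878%, 0.127% and 0.0871% of the reads in CNS libraries, against 0.190%, 0.0968% and 0.188% in periphery libraries. The 3 reads of CNS replicate 1 equal the limit that a count of 0 would allow. The mean was 0.0715% ± 0.064 in CNS and 0.158% ± 0.053 in periphery (SD, n = 3 each), which differ by -0.0868 percentage points (exact permutation p = 0.2, two-sided). In the 3 pairs of single DEREG libraries that differ in EAE alone, the read share was lower with EAE. It was 0.0172% in EAE and 0.0851% in naive Tcon of E18 mice, 0.00817% and 0.0360% in Tcon of non-pregnant mice, and 0.0332% and 0.0489% in Treg of non-pregnant mice. The 3 EAE values of these pairs did not overlap the 3 naive values, though other EAE libraries reached 0.190%, and the mean difference was -0.0371 percentage points (exact permutation p = 0.25, the smallest this design allows). In the same order, 1 rearrangement held 183 of 312, 85 of 137 and 153 of 279 of these reads in the naive libraries. In the EAE libraries the largest held 24 of 70, 13 of 33 and 69 of 138. The share of rearrangements was higher with EAE in all 3 pairs, by 0.015, 0.0436 and 0.0138 percentage points. Treg of EAE E18 mice held 0.0138%, 0.0237%, 0.138%, 0.0632% and 0.0120%, and Tcon of that condition 0.0172%. Treg minus Tcon averaged 0.0237 percentage points (exact permutation p = 0.292) and E18 minus non-pregnant 0.0251 (exact permutation p = 0.375). Over the 16 comparisons of share, read share, clone size and cysteine position, no Benjamini-Hochberg adjusted p was below 0.857.

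Beside the other 19 amino acids of the loop, cysteine did not pass the test in either contrast of cell populations. In CNS it was 0.0564% ± 0.032 of loop letters and in periphery 0.0642% ± 0.021 (SD, n = 3 each), with a difference of -0.34 on the log2 scale (SE 0.64, edgeR adjusted p = 0.774). In that fit 3 of 20 residues passed an adjusted p of 0.05 (15%). The acidic residues aspartate and glutamate were higher in CNS, with log2 changes of 0.18 (SE 0.054, edgeR adjusted p = 0.0105) and 0.24 (SE 0.064, edgeR adjusted p = 0.00259). The basic residue arginine was lower, with -0.25 (SE 0.059, edgeR adjusted p = 0.00109). Without periphery replicate 1 the count in edgeR was 0, with 5 residues at an unadjusted p under 0.05. It was 1 without periphery replicate 3 and 8 without CNS replicate 2, and DESeq2 on all libraries gave 4.

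Between Treg and Tcon 9 of 20 residues passed (45%), and cysteine, at 0.0323% ± 0.015 of loop letters in 7 Treg libraries and 0.0187% ± 0.0058 in 4 Tcon libraries (SD), was not among them. Its Treg minus Tcon log2 value was 0.49 (SE 0.38, edgeR adjusted p = 0.262). Tryptophan rose most among those that passed, with 2.84% ± 0.16 of loop letters in Treg and 2.205% ± 0.066 in Tcon, 0.36 higher on the log2 scale (SE 0.047, edgeR adjusted p = 0.000197). Histidine (0.26), tyrosine (0.18), leucine (0.15) and arginine (0.15) were also higher in Treg on the log2 scale. Glutamate fell by 0.23, lysine by 0.21, proline by 0.088 and alanine by 0.070 on that scale. Of 8 hydrophobic residues 3 were higher and 1 lower, with a median log2 change of 0.12, against -0.037 over all 20. Of 4 charged residues 1 was higher and 2 lower, of 5 polar residues 1 was higher, and of glycine and proline 1 was lower. In CNS against periphery 2 of the 4 charged residues were higher and 1 lower, and none of the other lists held a call. Alanine and proline did not pass with TMM scaling, nor these and lysine with DESeq2. Without the Tcon EAE E18 library alanine, lysine and proline did not pass, and without either naive non-pregnant library alanine, histidine and proline did not. Proline also did not pass without Treg EAE E18 replicate 1, 2, 4 or 5.

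TRBV24 (Vβ17) was far more frequent among loop-cysteine rearrangements than among the others. It was the V segment of 44 of the 233 (18.9%) and of 1.10% of all other rearrangements. Genomic DNA also holds rearrangements that give no working receptor chain, and whether TRBV24 and TRBV21 chains are functional in the strains used is not given in the sources used here and was not tested. Of its own rearrangements, 2.53% of 1740 had a loop cysteine (Wilson 95% interval 1.89% to 3.38%), while the V segments other than TRBV24, TRBV21 (2.01%) and TRBV30 (0.559%) stood at or below 0.330%. In a fit of members against others within libraries, 1 of 33 V and J segments passed (3.03%), and it was TRBV24, with a difference of 4.01 on the log2 scale (SE 0.28, edgeR adjusted p = 7.66e-35). DESeq2 called 17 segments, 15 of them lower, and edgeR with TMM scaling called 20, 19 of them lower. These scalings put the median log2 change of all segments at -0.66 and -1.20, against -0.21 with library totals. TRBV24 passed under all settings run, with a log2 change between 2.83 and 5.09.

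**Figure D2:**
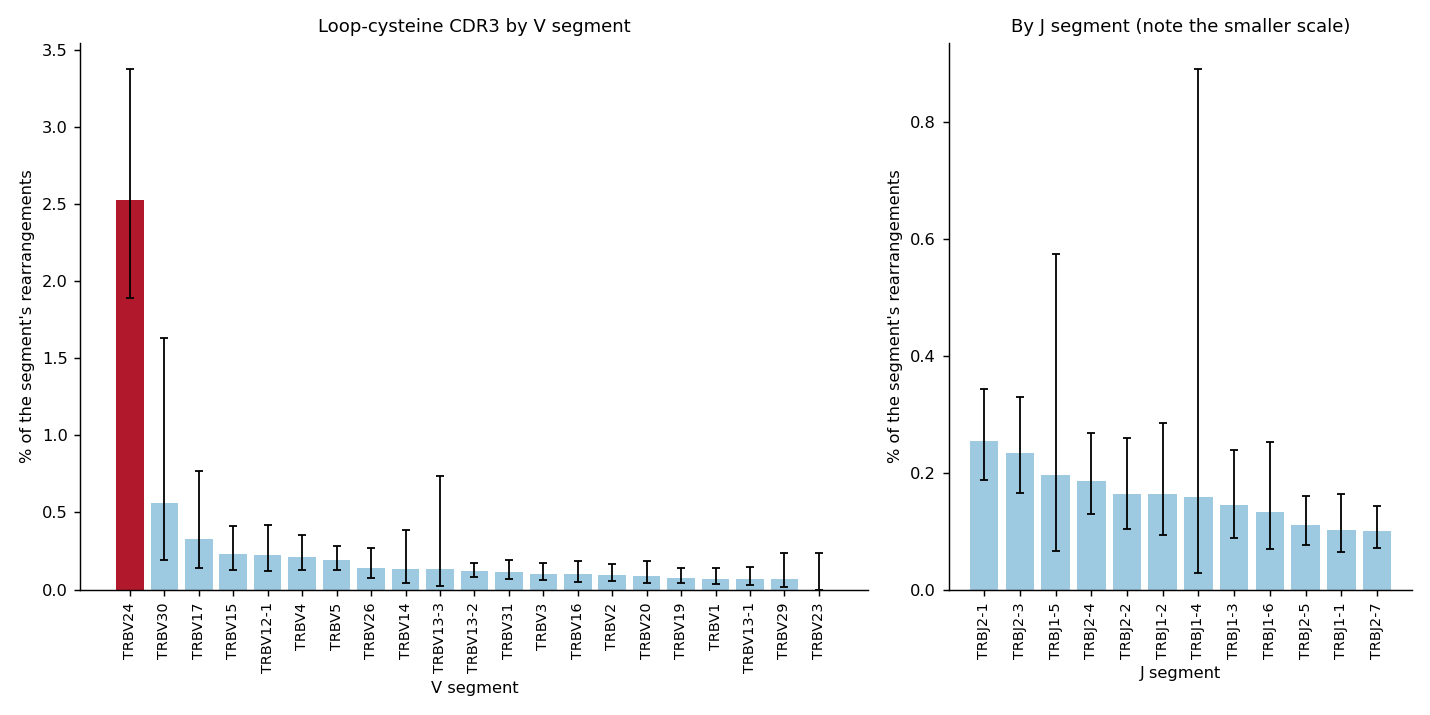
Percent of each segment's rearrangements, pooled over 17 libraries, that have a loop cysteine, for V segments (left) and J segments (right, on a smaller scale) with at least 500 rearrangements. Bars are the pooled percent and whiskers the Wilson 95% interval. TRBV24 stands at 2.53%, and the highest J segment, TRBJ2-1, at 0.253%.

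The pooled share with a loop cysteine was higher for TRBV24 than for the other V segments in each cell population. Loop cysteines were in 2.02% of TRBV24 rearrangements in CNS (2 of 99), 2.58% in periphery, 3.02% in Treg and 2.03% in Tcon. Both CNS rearrangements were in replicate 3 with 1 read each, and 1 of them had 113 reads in Treg EAE E18 replicate 4. With all other V segments the share was 0.225% in CNS, 0.279% in periphery, 0.103% in Treg and 0.0644% in Tcon. TRBV24 was above the other V segments in 14 of 17 libraries. In CNS replicates 1 and 2 and periphery replicate 2 none of the 50, 25 and 64 TRBV24 rearrangements had a loop cysteine. Among libraries with one, the ratio to the other V segments ran from 8.03 in periphery replicate 1 to 57.8 in Treg EAE E18 replicate 2. The latter came from 6 of 57 rearrangements, not all of them separate finds.

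**Figure D3:**
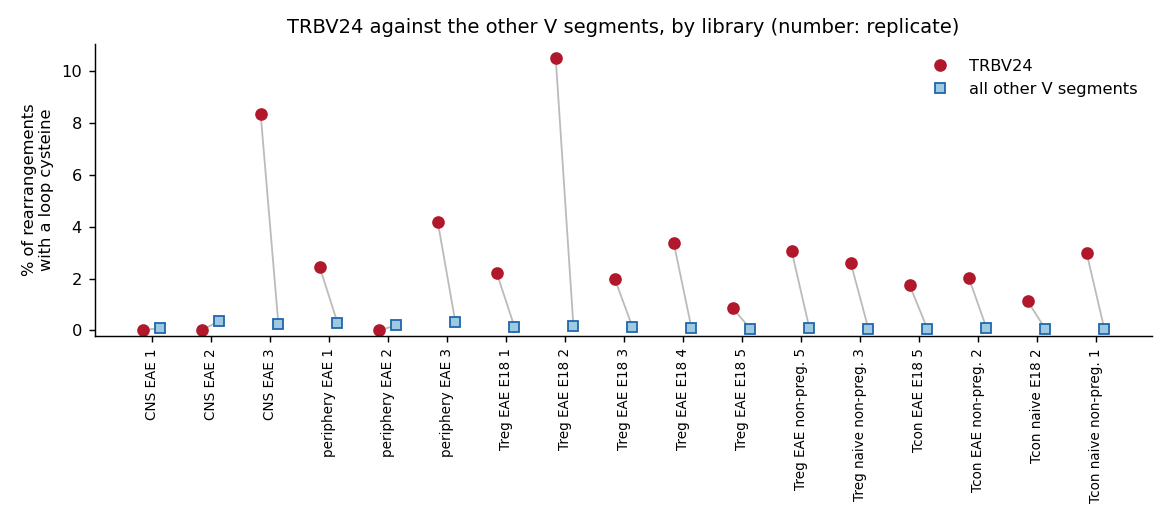
Percent of rearrangements with a loop cysteine in each of 17 libraries, for TRBV24 (circles) and for all other V segments together (squares). TRBV24 is higher in 14 libraries and at 0 in CNS replicates 1 and 2 and periphery replicate 2, and it reaches 10.5% in Treg EAE E18 replicate 2.

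Within TRBV24 the cysteine most often stood at letter 6, in 26 of 44 loops, but its excess was not limited to that place. In 14 of the 44, the codon began with the last base listed as V, the T shown in capitals above. Among 214 TRBV24 rearrangements whose V part ended exactly at this T, letter 6 was cysteine in 14 (6.54%, Wilson 95% interval 3.94% to 10.7%), tryptophan in 50, serine in 97, phenylalanine in 30 and leucine in 23. TRBV4 rearrangements whose V part ended at the T in capitals above had cysteine in 8 of 2078 (0.385%, interval 0.195% to 0.758%) and tryptophan in 296. TRBV26, which also can end in a T at letter 6, had cysteine in 1 of 225 and tryptophan in 74. Codons that could be placed and did not begin at the V end gave a loop cysteine in 1.49% of TRBV24 rearrangements (26, interval 1.02% to 2.18%) and in 0.113% of all others (172, interval 0.0974% to 0.131%). The other 4 TRBV24 codons could not be placed. Codons that ended with 1 base of J did so in 0.517% of TRBV24 and 0.0269% of other rearrangements.

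Cysteine stood out among the residues of TRBV24 loops. It was 0.492% of their loop letters and 0.0261% with all other V segments, a ratio of 18.9. The next ratios were 2.22 for leucine and 2.09 for tyrosine, both of which the TRBV24 end encodes, and 1.48 for proline. The other residues ranged from 0.431 for isoleucine to 1.26 for histidine. TRBV24 CDR3 were 14.3 ± 2.0 letters long and those of other V segments 13.8 ± 1.6 (SD over rearrangements).

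TRBV21 (Vβ19) was close to TRBV24, with 5 of 249 rearrangements (2.01%, Wilson 95% interval 0.861% to 4.61%). The limit on function given for TRBV24 holds for it too. It had too few rearrangements to enter the fit. Without the filter on low counts it passed beside TRBV24. The 5 came from 3 libraries, all of them had 15 to 69 reads, and 3 used TRBJ2-3. At the other end, TRBV23 had none in 1628 rearrangements, which allows up to 0.184%, and TRBV13-1, TRBV29 and TRBV1 had 0.0651% to 0.0681%. TRBV13-2, the most used V segment of the tables, had 26 in 21828 (0.119%).

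No J segment passed the test. TRBJ2-1 had the largest share, 41 of 16182 rearrangements (0.253%, interval 0.187% to 0.344%), or 0.71 on the log2 scale against the others (SE 0.28, edgeR adjusted p = 0.145). TRBJ2-7, the most used J segment, had 30 of 29903 (0.1003%, interval 0.0703% to 0.143%). J cluster 2 made up 75.5% of loop-cysteine rearrangements and 71.7% of others, with a median log2 change of 0.25 over its 6 tested segments, against -0.17 over the 6 of cluster 1 and -0.21 over all 33. The 233 rearrangements spread over 106 of 291 V-J pairs, and 44 pairs held a single one. TRBV24 with TRBJ1-3 had 8 in 95 rearrangements (8.42%, interval 4.33% to 15.7%), and TRBV24 with TRBJ2-2 had 7 in 122 (5.74%, interval 2.81% to 11.4%). The 8 with TRBJ1-3 include the sequence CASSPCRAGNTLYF in 3 libraries. They also include a 1-read variant, by 1 base, of a rearrangement with 13 reads in periphery replicate 3. They are thus not independent, as the interval takes them to be. TRBV13-2 with TRBJ2-1 also had 8, but in 2502 rearrangements (0.320%). By population, TRBJ2-3 held 19 of the 83 loop-cysteine rearrangements of the periphery and 1 of 18 in CNS. It held 4 of 82 in Treg and 8 of 50 in Tcon. Of all rearrangements it held, in the same order, 2478 of 26555, 651 of 7202, 4880 of 60592 and 5701 of 59564. Most of the 19 were in periphery replicate 1, and some of these were 1-base variants of each other. The difference between populations was not tested.

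The loop cysteine was at letter 6 in 53 of 233, at letter 9 in 42, at letters 7 and 8 in 38 each, at letter 10 in 24 and at letter 5 in 21. Its distance from the middle was at most 1 letter in 115 (49.4%) and at most 2 letters in 199 (85.4%). The rule largely fixes this, since on average 47.0% of the window letters of these loops lay within 1 letter of the middle and 78.9% within 2. The cysteine lay before the middle in 90 (38.6%), at the middle in 28 (12.0%) and beyond it in 115 (49.4%), while the window letters of the same loops lay before the middle in 54.9%, at it in 9.49% and beyond it in 35.6%. These shares are a description, and no test was made. Letters 5 and 6 held it in 35 of 82 loops in Treg (42.7%), 15 of 50 in Tcon (30.0%), 3 of 18 in CNS and 21 of 83 in periphery (25.3%). The mean distance from the middle was 1.52 ± 0.30 letters in Treg (SD, n = 7) and 1.56 ± 0.094 in Tcon of the same conditions (SD, n = 3), with a mean difference within conditions of -0.17 (exact permutation p = 0.5). It was 1.31 ± 0.90 letters in CNS and 1.15 ± 0.25 in periphery (SD, n = 3 each), a difference of 0.16 (exact permutation p = 0.8). Single long loops raised some library means. In CNS replicate 2 (2.11 letters) a 1-read loop of 48 letters had its cysteine 10.5 letters from the middle. In Treg EAE E18 replicate 3 (2.10 letters) a loop of 43 letters had it 8 letters away. In Tcon naive non-pregnant replicate 1 (1.59 letters) a loop of 42 letters had it 7.5 letters away. E18 minus non-pregnant was 0.00625 letters (exact permutation p = 0.958) and EAE minus naive 0.0391 (exact permutation p = 0.5).

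The share with a loop cysteine differed by CDR3 length, and the window widens by 1 letter with each letter of length. It was 0.0801% of CDR3 of 11 letters, 0.0684% of 12, 0.0763% of 13, 0.147% of 14, 0.213% of 15, 0.283% of 16 and 0.453% of 17. At 18 letters there were 0 in 527, which allows up to 0.569%. Per 10000 window letters the count was 4.06 at 11 letters (5 loops), 2.31 at 12, 1.93 at 13, 2.98 at 14, 3.59 at 15, 4.08 at 16 and 5.71 at 17. It was thus lowest at 13 letters among these 7 lengths. The 6 loops longer than 17 letters ran from 20 to 48, and 4 of them had 1 read.

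Most cysteine codons held bases between the stretches listed as V and J. Of the 226 loops whose segment borders could be placed, 74 had a codon wholly between these stretches. In 50 it took its last base from J and in 34 its last 2 bases from J. In 28 the codon began with the last V base. The remaining 40 lay wholly inside the stretch listed as J (33) or V (7). TGC was used in 121 and TGT in 112. The 74 codons include those of 4 loops longer than 25 letters. In 3 of these loops the cysteine follows bases of the TRBJ2-4 coding end in a shared stretch. In 1 it lies in the TRBV1 coding end. Another 12 of the 74 were listed wholly as D, and their bases were not compared with the D segments. Codons that began at a V end stood at letter 5 in 12 loops and at letter 6 in 16, and codons with bases from J at letters 6 to 12, as the plot of place and codon origin shows. The 2-base class was made mainly by TRBJ2-3, with 18 loops that all end in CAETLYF, and TRBJ2-4, with 12, of which 11 end in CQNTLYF. Among rearrangements in which TRBJ2-3 or TRBJ2-4 began at this GT, 18 of 2518 (0.715%) and 12 of 1693 (0.709%) had a cysteine there.

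**Figure D4:**
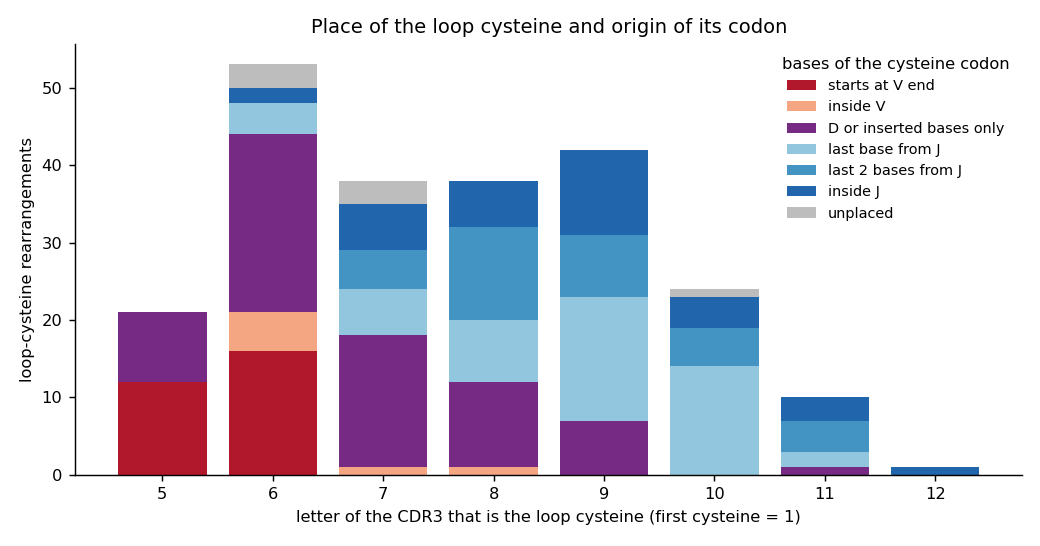
Number of loop-cysteine rearrangements (all 17 libraries) by the letter at which the cysteine stands, for letters 5 to 12, with colours for the segment that supplied the bases of its codon. Codons that start at the V end sit at letters 5 and 6, and those with bases from J at letters 6 to 12, most of them from 8 on.

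Codons inside J differed from the segment's usual bases in 30 of 33 loops. In 14 of them TRBJ2-1 had TGT where its usual end has TAT, and 7 of these 14 had a single read. Variants, by 1 base, of larger rearrangements in the same library, with the same V and J and at least 20 times the reads, made up 12 of 233 loop-cysteine rearrangements (5.15%) and 2.00% of the others. This rule leaves out variants at smaller read ratios, such as 1-base variants of TRBV13-2 with 26 and 5 reads in CNS replicate 2. Rearrangements with few reads meet this rule more easily, and 51.5% of loop-cysteine rearrangements had 1 read, against 25.4% of the others. The shares were not compared at equal read number. In 10 of the 12 loop-cysteine variants the differing base was in the cysteine codon, and the larger rearrangement had tyrosine there in 6. In the other 2 the larger rearrangement had the cysteine too. Where the larger one has no loop cysteine, the rule itself places the differing base in that codon, so its place says nothing of its origin. Base errors made in PCR or reading can give such variants. Their part in the 1-read rearrangements was not tested.

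The residue after the cysteine was alanine in 46 loops, glycine in 34, glutamine in 31 and serine in 29, and the residue before it was glycine in 81. TRBD2 was assigned in 41.2% of loop-cysteine rearrangements and 32.2% of the others, and TRBD1 in 27.9% and 39.3%. Inserted bases, those between V and J not assigned to D, were more numerous in loop-cysteine rearrangements in 16 of 17 libraries. The difference averaged 2.48 bases ± 2.79 (SD, n = 17, median 1.56, permutation p = 5e-05 by sign flips over libraries). It was 8.23 in CNS replicate 2, 8.67 in Treg EAE E18 replicate 3 and 5.72 in Tcon naive non-pregnant replicate 1. Each held 1 loop of 42 to 48 letters with 69 to 77 bases counted as inserted, which raised the mean. These bases include bases of the TRBJ2-4 coding end, so they are not all insertions. In Treg EAE E18 replicate 1 a loop of 26 letters had 40, which include the TRBV1 coding end. The rule favours a higher number in loop-cysteine rearrangements, since its window widens with length and most of the cysteine codons held bases between V and J. Loop-cysteine CDR3 averaged 14.97 letters and the others 13.83. Among CDR3 of 13 to 15 letters, where the window still varied from 4 to 6 letters, the difference was 0.91 bases (permutation p = 0.00015).

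Loop-cysteine rearrangements had fewer reads than the others. Their median was 1 read, against 11, and 51.5% of them had 1 read, against 25.4%. The mean log2 read number was lower in 15 of 17 libraries, with an average difference of -1.39 ± 0.82 (SD, n = 17, range -2.76 to 0.36, permutation p = 0.00011 by sign flips over libraries). CNS replicate 2 and Treg EAE E18 replicate 3 were the exceptions, with differences of 0.20 and 0.36. The difference averaged -1.24 ± 1.48 in CNS and -1.45 ± 0.36 in periphery (SD, n = 3 each), and -1.34 ± 0.83 over 7 Treg and -1.53 ± 0.74 over 4 Tcon libraries (SD). Neither pair differed beyond the spread between libraries, as shown by 0.21 for CNS minus periphery (exact permutation p = 0.8) and 0.37 for Treg minus Tcon within conditions (exact permutation p = 0.542). The same measure gave 0.60 for E18 minus non-pregnant (exact permutation p = 0.333) and -0.16 for EAE minus naive (exact permutation p = 0.75). The difference between loop-cysteine and other rearrangements was smaller without single reads. It was -0.84 among rearrangements with at least 2 reads (permutation p = 0.00062), and to -0.49 with at least 5 (permutation p = 0.0454).

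**Figure D5:**
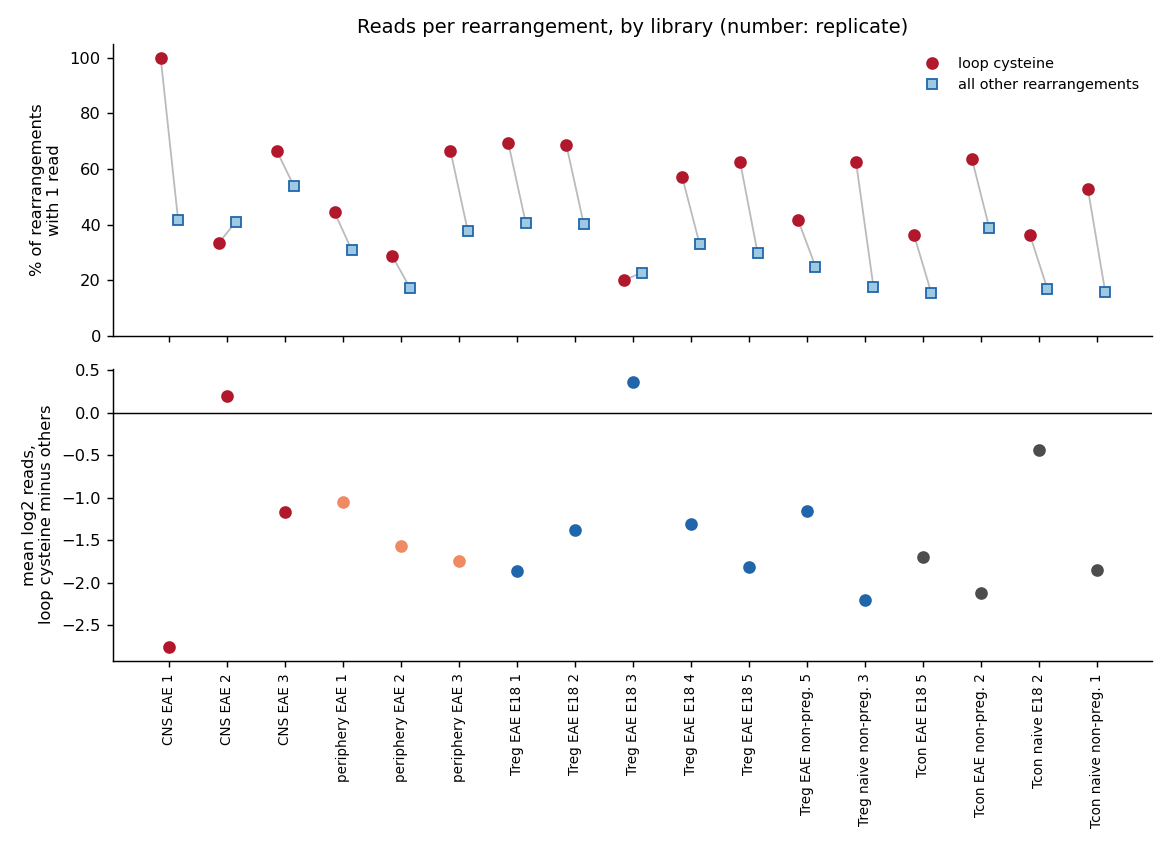
Percent of rearrangements with 1 read, for loop-cysteine rearrangements (circles) and all others (squares), in each of 17 libraries (upper panel), and mean log2 reads of loop-cysteine rearrangements minus that of all others (lower panel). The lower panel is above 0 in CNS replicate 2 and Treg EAE E18 replicate 3 and below 0 in the other 15 libraries.

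TRBV24 differed here too. Loop-cysteine rearrangements with TRBV24 had a median of 7 reads and 34.1% had 1 read, close to the 33.3% of the other TRBV24 rearrangements, whose median was 5. With all other V segments, 55.6% of loop-cysteine rearrangements had 1 read, against 25.3% of the others. TRBV24 was 28 of the 85 loop-cysteine rearrangements with at least 5 reads (32.9%).

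None of the 233 loop-cysteine rearrangements exceeded 0.1% of the reads of its library, which allows a share of up to 1.29%, and 1.12% of the others did. The largest was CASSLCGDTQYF of periphery replicate 1, with TRBV24, at 317 reads (0.0961% of reads, Wilson 95% interval 0.0861% to 0.107%), and it ranked 17 in that library. The TRBV19 loop of CNS replicate 3 had 285 reads (0.0848%) and stood at rank 231 there. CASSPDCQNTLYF with TRBV16, in CNS replicate 2, had 246 reads (0.0662%), and the TRBV4 loop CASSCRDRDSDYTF of periphery replicate 3 had 258 (0.0661%). In Treg the largest members per library had 26 to 227 reads, and in Tcon 13 to 183. The Tcon one with 183 reads, a TRBV5 loop of the naive E18 library, ranked 26 there. The largest member of CNS replicate 1 had 1 read.

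Few loop-cysteine sequences recurred. Of 222 distinct nucleotide sequences 9 (4.05%) were in more than 1 library, against 6.99% of the others, and of 219 clonotypes 9 (4.11%), against 12.9%. Loop-cysteine rearrangements had fewer reads and were longer than the others, and sharing was not compared at equal read number or length. The most shared were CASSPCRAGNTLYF with TRBV24 and a TRBV3 loop, in 3 libraries each. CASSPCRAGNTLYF had 113 reads in Treg EAE E18 replicate 4, 1 read in Treg EAE E18 replicate 2 and 1 in CNS replicate 3. The TRBV3 loop had 70 reads in Treg EAE E18 replicate 3 and 1 read each in Treg EAE E18 replicate 1 and Treg EAE non-pregnant replicate 5. The TRBV19 loop printed above had 285 reads in CNS replicate 3 and 1 in CNS replicate 1. A TRBV4 loop had 227 reads in Treg EAE E18 replicate 3 and 1 in replicate 2, and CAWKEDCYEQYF with TRBV31 had 139 and 2 reads in Treg EAE E18 replicates 3 and 1. In each of these 5 cases 1 library held nearly all the reads. Sequences with at least 100 times as many reads in another library made up 1.72% of loop-cysteine rearrangements and 2.84% of the others. Whether single reads of such a sequence came from other cells or from reads assigned to the wrong library was not tested.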

How the data were processed

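T cell receptor beta rearrangements had been amplified from genomic DNA with V and J primers, per the labels' protocols, and assigned on mm10, per the submitters' processing notes. The assignment program is not given in the sources used here. The deposited tables list, per library, each CDR3 with its read count, its fraction of the library's reads by the authors, its segments, and segment borders counted from 0. Of 46 labelled samples, 17 were analysed and 29 were not analysed here. Libraries held 278420 to 571124 reads and 1698 to 19898 rearrangements. A count of 3 reads, taken as the limit for a count of 0, is 0.000525% to 0.00108% of reads. Limits for 0 rearrangements likewise take a count of 3 over the rearrangements counted. Intervals are 95% Wilson intervals. Intervals and limits cover counting error only, since PCR reads without molecular identifiers are not independent molecules.

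The members and lists were chosen with earlier results of these data known. Groups follow the labels, which do not say whether replicates are separate animals, so p-values measure the spread between these samples. Each library gave 1 value per measure. Groups were compared by exact two-sided permutation over libraries (within condition for the DEREG mice), with Benjamini-Hochberg adjustment over 16 tests, and members with others by 100000 sign flips over the 17 libraries. Residue and segment counts were tested with edgeR 4.0.16 (quasi-likelihood, library totals without further scaling, segments with a mean of at least 10), at an adjusted p of 0.05. The residue fit of Treg against Tcon took 7 Treg and 4 Tcon libraries. The fits were tested on simulated data. Python 3.11.15, scipy 1.17.1 and R 4.3.3 were used. Codon origin was read from the deposited borders, and 7 members whose V and J borders overlapped were not placed. Segment ends are consensus bases, shared by at least 80% of at least 15 rearrangements, and segment positions come from RefSeq (GRCm38.p6). All segments and residues tested were eligible to be named, and single rearrangements were named as the one with most reads per library or as the 5 most shared. Alternatives were DESeq2 1.42.0, TMM, other read minima, windows and lengths, left-out libraries, a replicate block, and leaving out carried-over or near-identical sequences. The minimum of 5 reads was added after seeing the data.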

Additional observations from a re-analysis of the deposited data

Results flagged for a closer look

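In the 5 Treg libraries of EAE E18 mice, replicate 3 stood apart from the others in the size of loop-cysteine rearrangements. Its members had 0.36 more log2 reads than the other rearrangements of the library, while the other 4 replicates had -1.86 to -1.31. The median member of that library had 12 reads. In replicate 2 of the same group, 10.5% of TRBV24 rearrangements had a loop cysteine (6 of 57), against 0.847% to 3.39% in the other 4. Groups of 5 libraries were tested for such outliers on 7 measures, and chance marks about 1 in 20.

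The Treg minus Tcon difference in the share of rearrangements had opposite directions in EAE mice, at 0.0909 percentage points in E18 and -0.0152 percentage points in non-pregnant mice. In E18 all 5 Treg libraries lay above the single Tcon library. The difference between these conditions was not tested.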

How the results depend on the processing

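The lower clone size and the higher number of inserted bases of loop-cysteine rearrangements, and the TRBV24 excess, kept direction and call under every alternative run. No group comparison of the 16 came below an exact permutation p of 0.0833, and several near 0 changed sign, with the cause not tested. CNS minus periphery in the share of rearrangements was 0.00779 percentage points with at least 2 reads, 0.0250 with at least 5, 0.0130 with a window 1 letter wider on each side, and -0.0926 to 0.0528 with 1 library left out. For Treg minus Tcon the range with 1 library left out was -0.000346 to 0.0527. E18 minus non-pregnant was 0.00125 with at least 2 reads, 0.0169 with at least 5, 0.00778 without near-identical sequences, and -0.0358 to 0.0173 with 1 library left out. With 1 library left out, the clone size difference was -0.51 to 0.97 for CNS minus periphery and -0.76 to 0.39 for EAE minus naive. The distance from the middle, CNS minus periphery, was -0.28 letters for 13 to 15 letters, -0.10 within 2 letters of the middle, -0.55 with at least 5 reads, and -0.24 to 0.65 with 1 library left out. For E18 minus non-pregnant it was -0.00298 without carried-over sequences, -0.0262 without near-identical ones, -0.0171 for 13 to 15 letters, -0.0511 within 2 letters of the middle, and -0.14 to 0.10 with 1 library left out. Residue calls in CNS against periphery numbered 6 with at least 2 reads and 0 to 8 with 1 library left out, and the log2 change of cysteine was 0.12 with at least 5 reads and -0.75 to 0.21 with 1 library left out. Segment calls numbered 17 with DESeq2, 20 with TMM, 2 without the filter on low counts, with at least 2 reads or within 2 letters of the middle, 4 with at least 5 reads, and 1 to 2 with 1 library left out (2 without periphery replicate 3).

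Residue shares did not settle whether the replicate numbers of CNS and periphery pair the libraries, and the labels do not say. The correlation of same-numbered deviations over 20 residues was -0.634, -0.683 and 0.629. With a replicate block the share difference was -0.0355 percentage points (exact permutation p = 0.75), and 3 residues passed. In the CNS libraries 3 to 9 members set each value.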

Other observations

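Tryptophan and cysteine codons share their first bases, and among the rearrangements whose V part ends in a T at the first base of a loop codon, cysteine was rare outside TRBV24. TRBV3 had 3 cysteines and 248 tryptophans at letter 5 in 1728 such rearrangements, and TRBV16 had 0 cysteines and 172 tryptophans in 1063, which allows a cysteine share of up to 0.282%.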
